A study of Mus musculus with 30 samples.

Results

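Natural killer (NK) cells that lack the prostaglandin E2 (PGE2) receptors EP2 and EP4 were compared with and without stimulation through the activating receptor NK1.1, in the absence of added PGE2. The comparison holds 7 of the 30 ATAC-seq libraries of the series, chosen by their labels: 4 of stimulated KO cells (replicates 1 to 4) and 3 of resting KO cells (replicates 2 to 4). ATAC-seq uses a transposase to cut and tag open DNA, so the read count in a peak measures chromatin accessibility there, not expression of a gene. Both groups were splenic NK cells of GzmbCrePtger2-/-Ptger4fl/fl mice, in which Ptger2 (EP2) is a knockout allele in all cells and Ptger4 (EP4) is deleted where Cre is made from the granzyme B promoter, so both carry Cre as well as the receptor loss. Cells were grown for 5 days with low-dose IL-2 and IL15:IL15Ra. Stimulated KO cells were left for 1 h and then received anti-NK1.1 for 4 h, and resting KO cells were left for the same 5 h. Where they are set beside this comparison, the 8 libraries of KO cells given PGE2 at 100 ng/ml (4 stimulated, 4 resting) and the 8 of untreated C57BL/6J cells (wild type, WT; 4 stimulated, 4 resting) had the same culture and timing, and WT cells carry no Cre in their label.

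NK1.1, encoded by Klrb1c, is an activating receptor of mouse NK cells that signals through an adaptor with an immunoreceptor tyrosine-based activation motif, kinases of the Syk family and calcium. The pathway ends in transcription factors of the NFAT, AP-1 and NF-κB families, which switch on cytokine, chemokine and granule genes within hours. EP2 and EP4 couple to cyclic AMP, a brake on this signalling, and the KO cells were made without that brake.

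The 7 libraries held between 8444350 and 20153816 reads in 38526 peaks. Replicates 1 and 2 were shallower, with at most 9875795 reads, than replicates 3 and 4, with at least 17684832. Values below are the authors' normalised read counts per library, listed in order of replicate number, and differences are on the log2(count + 1) scale with their standard error. At the promoter peak of Ptger2 the 15 KO libraries of the series lay between 83.6 and 247, against 560 to 1109 in the 15 WT libraries, and at the Ptger4 exon peak between 56.2 and 152, against 434 to 685, so every library matched its genotype label at these 2 peaks. All 15 NK cell marker genes looked up, Klrb1c among them, had a tested peak. Of the marker genes of other cell types, 5 of 9 B cell, 5 of 13 T cell and 8 of 14 myeloid genes also had one, while the B cell genes Cd79a, Cd79b and Ms4a1, the T cell genes Cd4, Cd8a, Trac and Trbc1 and the myeloid genes Lyz2, Mpo and S100a8 were among those with none. B cell marker peaks averaged 274 to 335 in stimulated KO libraries, against 272 to 299 in resting ones, and T cell marker peaks 338 to 379.7 in stimulated KO libraries, against 335 to 366 in resting ones. Marker peaks of myeloid cells averaged 228 to 244 per peak in stimulated KO libraries, against 183 to 194 in resting ones, with 5 opened and 2 closed of 13, and those of ILC2 and ILC3 cells 186 to 209.9, against 173 to 178, with 14 and 6 of 29 (10 and 11 with quantile normalisation). That is 38.5% and 15.4% for myeloid cells and 48.3% and 20.7% for ILC2 and ILC3 cells, beside 28.1% and 26.4% of all tested peaks. The part of these other cell types in the results was not tested. In such bulk libraries, a peak opening in more of the cells and opening wider in each cannot be told apart.

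Stimulation opened and closed similar numbers of peaks, but the openings were far larger. With limma, 10816 of 38525 tested peaks opened (28.1%) and 10185 closed (26.4%), 54.5% in all, at a Benjamini-Hochberg adjusted p under 0.05. All stimulated libraries lay above all resting ones at 10416 peaks (27.0%), called or not, and below them at 9619 (25.0%). The median opened peak gained 0.99 on the log2 scale and the median closed peak fell by 0.62. At least 2-fold, 5332 peaks opened (13.8%) and 1754 closed (4.55%). At least 4-fold, 2075 opened (5.39%) and 16 closed (0.0415%). At least 8-fold, 556 opened (1.44%) and 0 closed (0.0%). The extremes were 5.78, at Xcl1, and -2.54, at Sik3. The balance of calls depended on scaling: with quantile normalisation, which moved the median of all peaks to -0.13, 9695 opened and 14107 closed, so openings made up 40.7% of calls in place of 51.5%.

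Large openings lay mostly outside promoters, at peaks with low counts in resting cells. Peaks the table calls intergenic are named distal below. Promoters held 12048 of the tested peaks, of which 2156 opened and 2800 closed, but at least 2-fold only 374 opened, or 7.01% of all peaks opened that far. Introns and intergenic sequence opened by at least 2-fold at 19.6% and 19.2% of their peaks, against 3.10% at promoters. Peaks opened at least 4-fold had a median of 160.0 in stimulated and 23.6 in resting KO cells. The same peaks had 19.5 in resting WT cells, whose libraries entered the filter and the spread of the fit but not the difference. Peaks closed at least 2-fold had 64.8 in stimulated and 155 in resting KO cells, with 149 in resting WT cells.

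**Figure D1:**
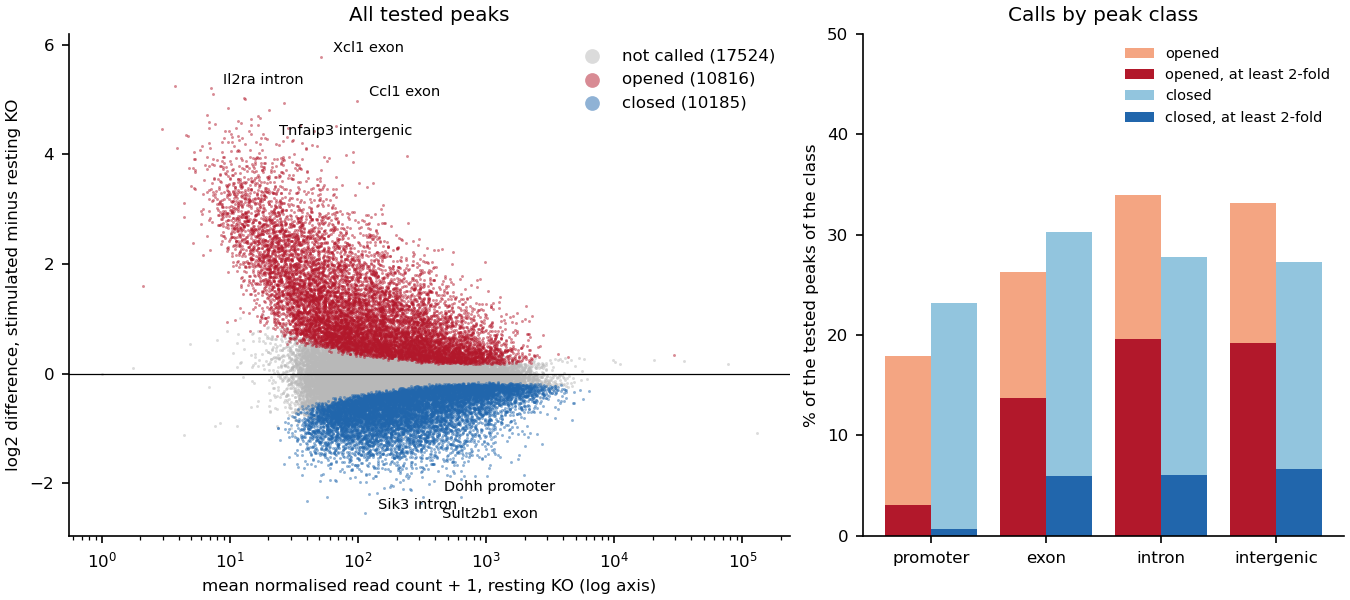
Left, each tested peak by its mean normalised read count plus 1 in resting KO cells (log axis) and its log2 difference, stimulated minus resting KO, with opened peaks in red, closed in blue and uncalled in grey; openings reach 5.78 at low resting levels while closings stop at -2.54. Right, the percentage of each peak class that opened or closed, with the darker part at least 2-fold; promoters reach 3.10% opened at least 2-fold and introns 19.6%.

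The strongest opening lay in an exon of Xcl1, the chemokine that draws cross-presenting dendritic cells (chr1:164928927-164932073). It had 4259, 3244, 1946 and 1933 in stimulated KO libraries, against 33.2, 70.9 and 46.3 in resting KO libraries, a difference of 5.78 ± 0.31 (limma adjusted p = 3.81e-18). Every stimulated library lay more than an order of magnitude above every resting one, and the 2 shallower stimulated libraries were the highest, with 5.06 from the libraries numbered 3 and 4 alone. An exon peak of Ccl1, a chemokine for CCR8-bearing cells (chr11:82173321-82177520), had 4814, 3427, 2371 and 2280.2, against 90.6, 102 and 97.2, a difference of 4.98 ± 0.24 (limma adjusted p = 2.37e-19). Here too the groups were far apart, and the resting libraries were close to one another.

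An intron peak of Il2ra, the high-affinity IL-2 receptor chain CD25 (chr2:11645124-11645827), had 197, 165, 186 and 147 in stimulated KO libraries, against 0, 9.94 and 8.35 in resting ones. The difference was 5.21 ± 0.47 (limma adjusted p = 7.31e-12), and its size rests on how near to 0 the resting libraries are: without resting replicate 2, which had no read there, it was 4.10. A distal peak of Tnfaip3, the NF-κB brake A20 (chr10:18948850-18949687), had 297, 345, 450.1 and 438, against 6.04, 25.2 and 15.9 (4.69 ± 0.25, limma adjusted p = 7.1e-18). A distal peak of Mir146, a microRNA gene of the same feedback, had 423, 346, 435 and 429, against 9.06, 21.9 and 17.5 (4.65 ± 0.30), and one of Thy1, a surface glycoprotein, 593, 386, 730.5 and 595, against 16.6, 20.5 and 20.5 (4.80 ± 0.24). In all of these the stimulated and the resting libraries did not overlap, which the rule that chose these peaks required. Other distal or intronic openings of 4.72 to 5.25 belonged to Pvt1, a long noncoding RNA gene beside Myc, 4930469K13Rik, Alcam (the ligand of CD6), Eea1 (an endosome tether), Dock10 (a Rac and Cdc42 activator) and Gm4832. These too rest on low resting counts: without resting replicate 2, Gm4832 was at 4.61, Dock10 at 3.98, Alcam at 4.31 and Pvt1 at 3.64. Without resting replicate 3, Il2ra, Dock10 and Pvt1 were at 5.83, 5.90 and 5.32, and without resting replicate 4 Gm4832 was at 6.16.

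**Figure D2:**
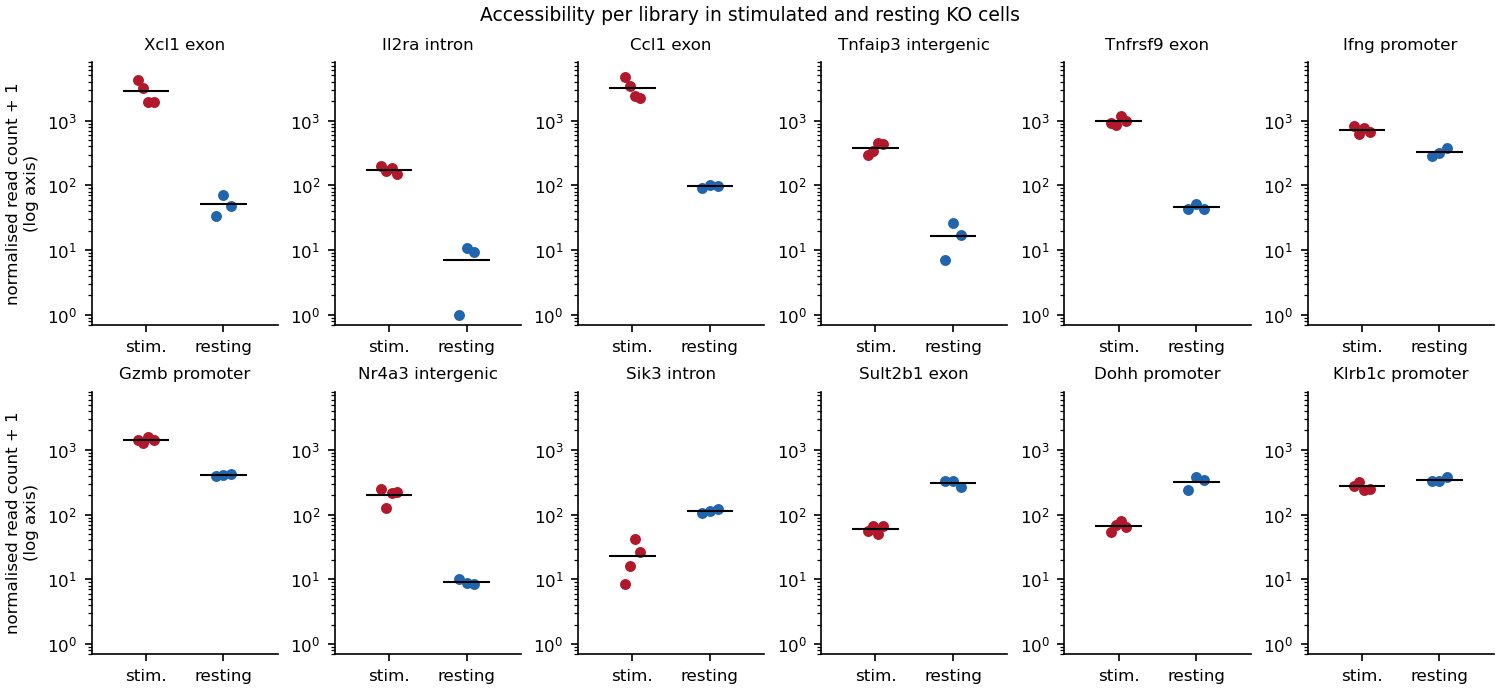
Normalised read count plus 1 (log axis) of 12 peaks in each of the 4 stimulated and 3 resting KO libraries, with a bar at the mean. Openings include Tnfrsf9 at 982 ± 129 in stimulated and 44.8 ± 4.82 in resting cells (SD), while Sik3, Sult2b1, Dohh and Klrb1c lie lower after stimulation.

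Cytokine and chemokine genes had the highest median difference of the lists examined. Here 97 of 130 peaks opened (74.6%) and 8 closed (6.15%), beside 28.1% and 26.4% of all peaks, and 36 opened at least 4-fold. The median log2 difference was 1.20, compared with -0.03 over all tested peaks. At promoters of the list, 18 opened and 0 closed of 21, beside 2156 and 2800 of 12048 for all promoters. Ccl4, an inflammatory chemokine gene, had an exon peak (chr11:83663325-83667399) of 5094, 4168, 3094 and 2902 in stimulated KO libraries, against 207, 208 and 305 in resting ones (3.97 ± 0.18). Fasl, the death ligand, had a distal peak of 111 ± 17.5 in stimulated and 6.66 ± 6.98 in resting cells (SD, n = 4 and 3; 4.56 ± 0.48), which was 3.50 in the libraries numbered 3 and 4, 3.44 without resting replicate 2 and 5.39 without resting replicate 3.

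Single loci of the list opened along most of their length. At Xcl1, 11 of 12 peaks opened and none closed, and the one not called lay at 0.08. All 5 peaks of Ccl3 opened, by 0.79 to 2.03, as did all 3 of Ccl4 and both of Tnf. Ifng, the main NK cytokine, was mixed: 12 of 18 peaks opened and 2 closed. Its promoter (chr10:118440476-118441519) had 814, 629, 757 and 669.9 in stimulated KO libraries, against 287, 320.1 and 377 in resting ones (1.13 ± 0.10, limma adjusted p = 6.02e-12). The distal peak at chr10:118447221-118448300 had 290.0, 248, 294 and 249.6, against 27.2, 17.2 and 15.9 (3.72 ± 0.31). The 2 closed peaks, at chr10:118404250-118404955 and chr10:118476865-118477821, differed by -0.59 and -0.88, and the first was not called in the libraries numbered 3 and 4 (-0.49, limma adjusted p = 0.0752). Csf2, encoding GM-CSF, opened at its promoter, with 870.5 ± 113 in stimulated and 265 ± 24.5 in resting cells (SD; 1.71 ± 0.11), and its other peak was not called.

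Promoter sequence was read from RefSeq windows (assembly GRCm38.p6), as the 250 bases before the annotated start, on the gene's strand, for 8068 of 11466 genes with a promoter peak whose window lay wholly in the peak. The 6 shown are the most strongly opened with a window (Ccl1, chr11:82179813-82180062, minus strand), cytokine, chemokine and granule genes of the lists (Tnf, chr17:35202008-35202257, minus strand; Gzmb, chr14:56262335-56262584, minus strand; Cxcl10, chr5:92348890-92349139, minus strand; Ifng, chr10:118440796-118441045, plus strand), and the stimulated receptor's own gene, which closed (Klrb1c, chr6:128788642-128788891, minus strand). Capitals mark, on either strand, the AP-1 motif TGANTCA, the NFAT core GGAAAA and the TATA box TATAAA, which do not overlap in these windows. The CRE motif TGACGTCA was also searched and is not in them.
Ccl1: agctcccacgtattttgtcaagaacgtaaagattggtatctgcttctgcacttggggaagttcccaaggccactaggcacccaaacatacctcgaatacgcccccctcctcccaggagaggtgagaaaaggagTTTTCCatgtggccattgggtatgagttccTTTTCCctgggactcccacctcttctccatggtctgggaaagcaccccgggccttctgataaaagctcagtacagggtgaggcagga
Tnf: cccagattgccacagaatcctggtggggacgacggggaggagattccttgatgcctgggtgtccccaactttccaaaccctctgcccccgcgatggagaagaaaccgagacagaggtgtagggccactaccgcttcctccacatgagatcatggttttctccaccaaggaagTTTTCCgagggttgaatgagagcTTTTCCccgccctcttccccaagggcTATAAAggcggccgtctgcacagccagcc
Gzmb: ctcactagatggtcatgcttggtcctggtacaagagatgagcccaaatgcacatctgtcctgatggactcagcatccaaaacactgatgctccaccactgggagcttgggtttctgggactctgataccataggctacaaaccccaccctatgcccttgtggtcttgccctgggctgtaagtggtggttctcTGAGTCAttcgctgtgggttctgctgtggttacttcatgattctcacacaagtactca
Cxcl10: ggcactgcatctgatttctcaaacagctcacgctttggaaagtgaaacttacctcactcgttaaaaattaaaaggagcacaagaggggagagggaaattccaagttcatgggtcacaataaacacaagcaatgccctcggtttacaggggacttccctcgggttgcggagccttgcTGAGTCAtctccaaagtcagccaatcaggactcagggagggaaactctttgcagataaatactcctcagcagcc
Ifng: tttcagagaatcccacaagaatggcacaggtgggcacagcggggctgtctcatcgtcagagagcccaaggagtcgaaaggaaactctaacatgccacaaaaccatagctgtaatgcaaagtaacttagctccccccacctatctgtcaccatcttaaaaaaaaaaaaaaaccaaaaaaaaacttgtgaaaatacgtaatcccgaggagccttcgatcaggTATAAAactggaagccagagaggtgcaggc
Klrb1c: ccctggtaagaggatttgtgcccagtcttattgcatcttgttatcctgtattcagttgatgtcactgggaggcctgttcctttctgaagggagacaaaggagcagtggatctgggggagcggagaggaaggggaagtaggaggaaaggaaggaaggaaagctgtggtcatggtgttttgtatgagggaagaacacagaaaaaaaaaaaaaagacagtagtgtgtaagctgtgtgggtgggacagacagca

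The Ccl1 promoter peak over that window had 735, 541, 491 and 492 in stimulated KO libraries, against 30.2, 19.9 and 38.7 in resting ones (4.24 ± 0.24), and its window holds 2 NFAT cores. The Tnf promoter, with 2 NFAT cores and a TATA box, had 531, 468, 358 and 345, against 65.0, 89.5 and 103 (2.30 ± 0.18). Gzmb, encoding granzyme B, has 1 AP-1 motif and had 1419, 1278, 1595 and 1403, against 388, 409.6 and 425 (1.80 ± 0.09). Cxcl10, an interferon-induced chemokine gene, also has 1 AP-1 motif and had 187, 185, 225 and 181, against 61.9, 84.2 and 86.6 (1.32 ± 0.16). In each of these promoters the groups did not overlap, which the rule that named Ccl1 and Cxcl10 required.

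Across all matched promoters, the AP-1 motif was in 17.2% of the 128 that opened at least 2-fold, in 6.19% of all 1309 that opened, in 2.82% of the 1918 that closed and in 3.69% of all. The TATA box was in 14.8% of promoters opened at least 2-fold, 20.8% of the 24 closed at least 2-fold and 5.48% of all, so it was more frequent at strong changes in either direction. The NFAT core was in 24.2% and 29.2% of promoters opened and closed at least 2-fold and in 17.0% of all, with 17.8% of all opened and 17.7% of all closed. CRE motifs were in 4.97% of opened, 1.30% of closed and 3.02% of all promoters, but in only 1 of the 128 opened at least 2-fold (0.781%). None of the 24 promoters closed at least 2-fold held the AP-1 motif, but shares in so small a set are uncertain for every motif. The CCAAT box CCAATCA leaned the other way, at 15.6% of closed, 7.18% of opened and 10.8% of all. Promoters changed at least 2-fold were poorer in CpG, with a median of 8 per window where opened and 4 where closed, against 17 over all. These shares are descriptions of letters in a window, and peaks outside promoters were not searched.

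Genes of the transcription factor families that NK1.1 signalling ends in opened more often than they closed. In the AP-1 and MAP kinase feedback list, 104 of 184 peaks opened and 23 closed (median log2 difference 0.42), and in the NF-κB list 68 of 116 peaks opened and 12 closed (median log2 difference 0.47), with no closed promoter in either (4 and 2 with quantile normalisation). That is 56.5% and 12.5% in the first list and 58.6% and 10.3% in the second, beside 28.1% and 26.4% of all peaks. Rel, an NF-κB subunit, gained 4.37 at a distal peak (161 ± 39.8 in stimulated and 9.25 ± 8.23 in resting cells; 3.57 without resting replicate 2 and 5.02 without replicate 3), Nfkbiz, an NF-κB cofactor, 4.07, and Nfkb1 3.93 in an intron. Jun gained 3.18 at a distal peak, and the MAP kinase brakes Spry1 and Spry2 gained 3.45 and 3.19. In the list of calcium, NFAT, EGR and NR4A genes 70 of 164 peaks opened and 38 closed, or 42.7% and 23.2% (median log2 difference 0.20). Nr4a3, an orphan nuclear receptor induced by antigen receptors, had 246, 126, 214 and 219.9 at a distal peak (chr4:47967331-47968109), against 9.06, 7.95 and 7.59 (4.42 ± 0.30). Its relative Nr4a1 opened at 5 of 6 peaks, with 3.92 at a distal one, and Egr2 at 3 of 5, with 3.21 at one that had 104 ± 16.2 in stimulated and 10.4 ± 1.59 in resting cells. Nfat5, the osmotic stress member of the NFAT family, had a promoter peak (chr8:107290923-107291796) of 1469, 1099, 1367 and 1169, against 60.4, 96.8 and 83.5 (3.99 ± 0.16).

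Taken over all their peaks, genes of the first signalling steps stayed near the overall shares, while more of their promoters closed than opened. In the list of NK1.1 proximal signalling genes, 94 of 302 peaks opened and 93 closed (median log2 difference -0.07), or 31.1% and 30.8% beside 28.1% and 26.4% of all peaks, and with quantile normalisation 84 and 128. At its promoters 5 opened and 16 closed of 42, where 17.9% and 23.2% of all promoters opened and closed. Scaled by quantiles, total signal and housekeeping promoters, 6 and 19, 5 and 18, and 3 and 17 opened and closed. Zap70, a kinase of the Syk family, opened in an intron (464 ± 45.0 in stimulated and 34.8 ± 9.58 in resting cells; 3.73 ± 0.17), Cbl, a ubiquitin ligase that ends receptor signals, by 3.78 (3.06 without resting replicate 2), Prkcq, encoding protein kinase C theta, by 3.54, and the Src family kinase gene Fyn by 2.95.

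The gene of the stimulated receptor closed at most of its peaks. Of 7 Klrb1c peaks, 5 closed, none opened, and the other 2 differed by 0.10 and -0.02. The largest fall was distal (chr6:128766495-128767399), with 367, 369.5, 335 and 367 in stimulated KO libraries, against 728, 589.9 and 692 in resting ones (-0.89 ± 0.11, limma adjusted p = 1.54e-08). At the promoter whose sequence is shown the values were 281, 319.6, 239.9 and 248, against 328, 334 and 384, a small difference (-0.36 ± 0.13, limma adjusted p = 0.0205), although every stimulated library was below every resting one. It was -0.55 in the libraries numbered 3 and 4 and -0.13 in those numbered 1 and 2, which hold 1 resting library. The call was lost in some fits with 1 library left out (limma adjusted p 0.107 without resting replicate 4, 0.0696 without stimulated replicate 3, 0.0596 without stimulated replicate 4). Among NK receptor genes as a list, 19 of 92 peaks opened and 39 closed (median log2 difference -0.21), or 20.7% and 42.4% beside 28.1% and 26.4% of all peaks. At promoters 4 opened and 11 closed of 23, beside 17.9% and 23.2% of all promoters. Against that direction, peaks of Klrc2 and Klrc1, lectin-like receptors that pair with CD94, opened by 3.36 and 2.38, and Klri2 and Klrb1f by 2.49 and 1.87; reads may be split between these similar genes. The Fcgr3 promoter, of the antibody receptor CD16, closed (chr1:171060048-171060813), with 241, 215, 127 and 185, against 583, 589.9 and 541 (-1.61 ± 0.16).

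Co-stimulatory and inhibitory receptor genes opened more often than they closed. Among co-stimulatory and activation receptor genes, 32 of 70 peaks opened and 12 closed, and among inhibitory receptor genes, 34 of 68 peaks opened and 14 closed. Tnfrsf9, the co-stimulator 4-1BB, had 929, 864, 1163 and 972 in an exon (chr4:150944646-150947517), against 42.3, 50.4 and 41.8 (4.42 ± 0.17), and all 5 of its peaks opened. Crtam, an adhesion receptor of activated cytotoxic cells, gained 4.48 in an exon, the early activation marker gene Cd69 3.11 at a distal peak and Cd27 3.15 at a promoter. Of the inhibitory genes, Lilrb4a gained 3.88, Cd96 2.83, Havcr2 (TIM-3) 2.55 and Pdcd1 (PD-1) 2.50, the last at a promoter peak of 131, 158, 156 and 150.4 in stimulated libraries, against 33.2, 25.8 and 19.0 in resting ones.

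Cytotoxic granule genes opened at 39 of 81 peaks and closed at 18, or 48.1% and 22.2% beside 28.1% and 26.4% of all peaks. All 4 called peaks of Prf1, encoding perforin, opened, with 2.15 in an exon and 0.92 at the promoter (1835 ± 106 in stimulated and 966 ± 16.9 in resting cells). Gzmb opened at 7 of 9 peaks. Serpinb9, whose product protects the cell from its own granzyme B, gained 2.75 in an exon, Serpinb6b 2.74 and Lyst 2.65. Counts of Gzmb and the Serpinb genes may be split with near-identical relatives.

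Of genes in IL-2 and IL-15 signalling through STAT5, 73 of 129 peaks opened and 27 closed (median log2 difference 0.47). That is 56.6% and 20.9%, beside 28.1% and 26.4% of all peaks. At promoters 17 opened and 0 closed of 22 (17 and 2 with quantile normalisation), beside 17.9% and 23.2% of all promoters. All 5 Il2ra peaks opened. A distal peak of Cish, a feedback inhibitor of IL-2 and IL-15 signals (chr9:107302989-107303726), had 279.7, 171, 299 and 225, against 21.1, 13.9 and 28.1 (3.49 ± 0.26). The survival gene Bcl2a1d, one of several near-identical copies, gained 3.77, and the death gene Bcl2l11 (BIM) 3.16. Receptors for IL-12, IL-18 and interferons changed both ways, with 30 opened and 20 closed of 73 peaks, or 41.1% and 27.4%. Gains were 2.82 at Il21r, 1.85 at Tyk2, 1.63 at Stat4 and 1.19 at Il18rap.

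**Figure D3:**
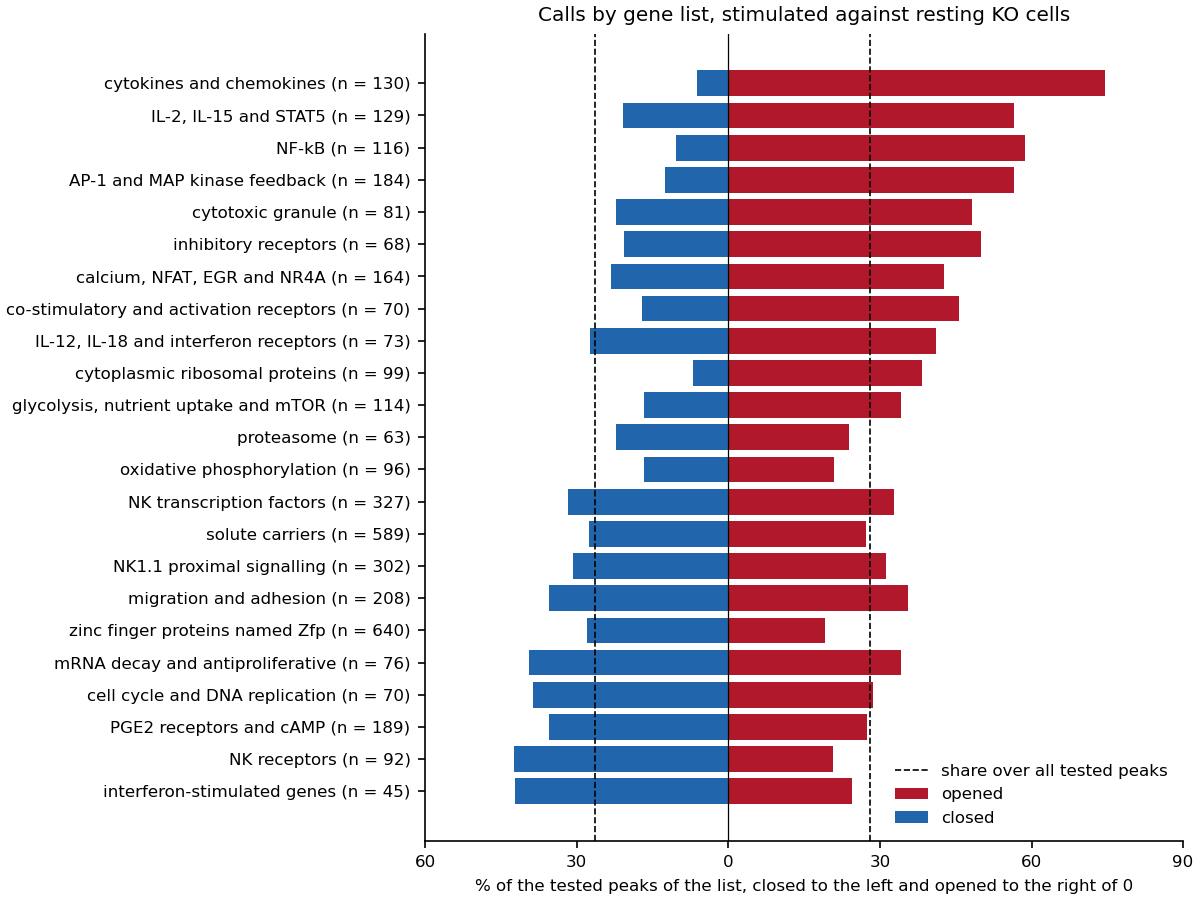
Percentage of the tested peaks of each gene list that opened (red, to the right of 0) or closed (blue, to the left) in stimulated against resting KO cells, ordered by median log2 difference, with dashed lines at the shares over all tested peaks, 28.1% and 26.4%. Cytokines and chemokines stand at the top with 74.6% opened, and interferon-stimulated genes at the bottom with 42.2% closed.

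Transcription factor genes of NK cell identity did not lean one way, with 107 opened and 104 closed of 327 peaks (100 and 133 with quantile normalisation). That is 32.7% and 31.8%, beside 28.1% and 26.4% of all peaks. Tbx21, encoding T-bet, opened at 7 of 10 peaks and closed at none, by up to 1.99. Eomes, its relative, opened at none of 3 and closed at 1 (-0.99 ± 0.26), while its promoter had 1382 ± 64.5 in stimulated and 1519 ± 155 in resting cells (-0.13 ± 0.10) and was not called. Irf4, a factor scaled to receptor signal strength, opened at 8 of 10. Its strongest peak (chr13:30787729-30788768) had 449, 351, 475 and 459, against 18.1, 31.2 and 34.2 (3.95 ± 0.27). Irf8 opened at all 4. Tcf7, encoding the factor TCF-1 of less differentiated lymphocytes, closed at 5 and opened at 2 of 9 peaks. Its most closed peak (chr11:52309349-52309958) had 28.0, 31.6, 17.3 and 22.3, against 68.0, 90.8 and 71.4 (-1.61 ± 0.25), while its promoter gained 0.85 and an intron peak 2.23. Bach2, a repressor that competes with AP-1, opened at 20 of 36 and closed at 3, and Myb, Ikzf2 and Runx1 gained 3.95, 3.59 and 3.43 at distal peaks.

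Closings were smaller, and the largest with limma fell in a gene that also held a strong opening. Sik3, a kinase restrained by cyclic AMP signalling, held the largest fall among the peaks named (chr9:46135371-46135823), with 7.36, 15.0, 40.5 and 25.6 in stimulated KO libraries, against 104, 113 and 123 in resting ones (-2.54 ± 0.32, limma adjusted p = 2.09e-08). That fall was -1.84 in the libraries numbered 3 and 4 and -2.18 with edgeR. With 1 library left out it ranged between -2.90 and -2.13. Another intron peak of Sik3, at chr9:46082965-46084086, had 898, 714, 937 and 827, against 36.3, 51.0 and 53.2 (4.16 ± 0.20). The groups lay apart, as the rule that named these peaks required, but in opposite directions at these 2 peaks of 1 gene. An exon peak of Sult2b1, a cholesterol sulfotransferase (chr7:45732982-45734111), had 55.9, 66.6, 49.1 and 65.4, against 331, 325 and 267 (-2.36 ± 0.16). With edgeR and in the libraries numbered 3 and 4 its difference was also -2.36, a larger fall than that at Sik3. The most closed promoter was that of Dohh, which matures translation factor eIF5A (chr10:81382060-81382748), with 53.0, 68.2, 79.5 and 64.1, against 243, 375 and 343 (-2.25 ± 0.20). Distal peaks of Btg2, an antiproliferative gene, and Fut8, a fucosyltransferase, fell by 2.11 and 2.10, and an intron peak of Gpi1, a glycolytic enzyme, by 2.07. Promoters of Smu1, a splicing factor, Pym1, which acts on exon junction complexes, Arhgap45 and Mylpf fell by 1.56 to 1.82.

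Promoters of interferon-stimulated and cell cycle genes closed more often than they opened. Of 45 peaks of interferon-stimulated genes, 11 opened and 19 closed (median log2 difference -0.28), or 24.4% and 42.2% beside 28.1% and 26.4% of all peaks. At promoters 5 opened and 14 closed of 27. Opened members included Mx1 (1.34 in an intron), Cxcl10 (1.32 at its promoter) and Irf1 (1.16 at a distal peak). Cell cycle and replication genes had 2 opened and 17 closed of 28 promoters, against 2156 and 2800 of 12048 for all promoters. Outside promoters, falls were 1.42 at a distal peak of Ccne1 (cyclin E1), 1.14 in an intron of E2f2 and 0.76 in an intron of Cdc6. Cdk6 gained 2.91 in an intron. In each of 3 other scalings (quantile, total signal, housekeeping promoters), closed promoters again outnumbered opened ones in both lists. Cytoplasmic ribosomal protein genes went the other way, with 24 opened and 2 closed of 63 promoters and the same lean under those 3 scalings. For oxidative phosphorylation genes the lean turned: 13 opened and 12 closed of 73 promoters, but 9 and 17 with quantile normalisation.

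The remaining lists stayed near the shares over all peaks (28.1% opened, 26.4% closed) or changed both ways. Migration and adhesion genes had 74 opened and 74 closed of 208 peaks, among them openings of 4.04 to 4.61 at Rgs1, Rgs3 and Rgs16, which end chemokine receptor signals (Rgs3 at 3.43 without resting replicate 2), and an intronic opening of 4.31 at Cx3cr1, the fractalkine receptor gene. Taken over its 24 peaks, Rgs3 opened at 7 and closed at 13. Glycolysis, nutrient uptake and mTOR genes had 39 and 19 of 114, with 2.68 at Pfkfb3, a driver of glycolysis, and 2.05 at Slc7a5, an amino acid transporter. Genes of mRNA decay and growth arrest had 26 and 30 of 76, and genes of PGE2 receptors and cyclic AMP 52 and 67 of 189. Zinc finger genes named Zfp had 123 and 179 of 640, solute carriers 160 and 162 of 589, proteasome genes 15 and 14 of 63 (13 and 19 with quantile normalisation), and housekeeping genes 9 and 6 of 34. Markers of NK cells had 31 and 30 of 85 (29 and 35 with quantile normalisation), of B cells 3 and 3 of 13, of T cells 4 and 4 of 12, and of erythroid cells 1 and 1 of 4.

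The targeted loci also changed. The Ptger2 promoter peak had 247, 196, 226 and 235 in stimulated KO libraries, against 131, 113 and 94.9 in resting ones (1.00 ± 0.12, limma adjusted p = 2.51e-09), at levels below every WT library. Of the 6 Ptger4 peaks, 5 opened and 1 closed, between -0.88 and 1.24, and the promoter had 1326 ± 191 in stimulated and 1051 ± 90.7 in resting cells (0.33 ± 0.11), a call lost in some fits with 1 library left out (limma adjusted p 0.0643 without resting replicate 4, 0.068 without stimulated replicate 1) and in the libraries numbered 3 and 4.

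Changes gathered at some genes and stretches of the genome. Of 14886 genes with a tested peak, 2265 had both opened and closed peaks, 3417 opened ones alone and 3883 closed ones alone. Rbpj, the DNA-binding factor of the Notch pathway, opened at 19 of 21 peaks with none closed (median opened log2 2.41). Foxp1, a quiescence factor, opened at 21 of 40, Hivep3 at 20 of 28 and Morrbid, a long noncoding RNA gene beside Bcl2l11, at 24 of 34. Prkce, encoding protein kinase C epsilon, closed at 13 of 20 peaks with none opened, and Jak1, a kinase of cytokine receptors, closed at 16 of 22 and opened at 4. Genes with many peaks have more chances to appear here, and over all tested peaks 28.1% opened and 26.4% closed. In windows of 1 Mb, the most peaks opened at least 4-fold (14 of 44) lay around Irf4, Dusp22 and E2f3 on chromosome 13 (30000001 to 31000000), then 12 of 39 around Rgs16 on chromosome 1 and 12 of 30 around Rbpj on chromosome 5. Of all tested peaks, 5.39% opened that far. The windows given are extremes of the 2055 with a tested peak, and clustering was not tested. The Klra receptor cluster on chromosome 6 (130000001 to 131000000) had 22 closed and 5 opened of 35 peaks, and the Ms4a cluster on chromosome 19 (11000001 to 12000000) 26 and 7 of 48. By peaks closed at least 2-fold, the Ms4a window and one on chromosome 1 (170000001 to 171000000) held the most, 9 each. The Klra window held 8, as did windows on chromosome 9 (123000001 to 124000000) and chromosome 14 (77000001 to 78000000).

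Promoters followed the other peaks of their genes only in part. Where a gene had a peak outside its promoter that opened at least 4-fold, its promoter opened in 32.0%, closed in 15.9% and was not called in 52.1% of 1012 genes. Over all 5850 genes with both a promoter peak and another, these shares were 19.5%, 24.4% and 56.1%. Among the 888 genes with such a peak closed at least 2-fold, 35.7% of promoters closed. Both kinds of peak come from the same libraries.

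The response was set against that of 2 other sets of libraries, neither of which shares a library with it. The effect in PGE2-treated KO cells was called in the same direction at 9614 (88.9%) of the peaks opened in untreated KO cells, beside 27.7% of all tested peaks, and at 8304 (81.5%) of those closed, beside 27.1%. All calls use 1 spread per peak from the shared fit, so a peak of low spread tends to be called in each comparison. Part of this overlap can come from that. In untreated WT cells, 28.9% of all tested peaks opened and 27.4% closed. Over 38525 peaks, whose libraries share size factors and peak set, the log2 differences correlated at r = 0.962 with those in PGE2-treated KO cells and at r = 0.963 with those in untreated WT cells, a description with no test. Of the 2075 peaks opened at least 4-fold, 2074 were called higher in PGE2-treated KO cells and all 2075 in WT cells. Their medians were 2.60 in untreated KO cells, which chose them, 2.47 in PGE2-treated KO cells and 2.66 in WT cells. With limma, the difference between the effects in untreated and PGE2-treated KO cells was called at 0 peaks (0.0%), with 1308 at an unadjusted p under 0.05 (3.4%), and edgeR and DESeq2 also called 0. The difference between untreated KO and untreated WT cells was called at 3 peaks (0.00779%), with 1452 at an unadjusted p under 0.05 (3.77%), and at 4 each by edgeR and DESeq2. A difference that misses the threshold does not show that the effects are alike.

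**Figure D4:**
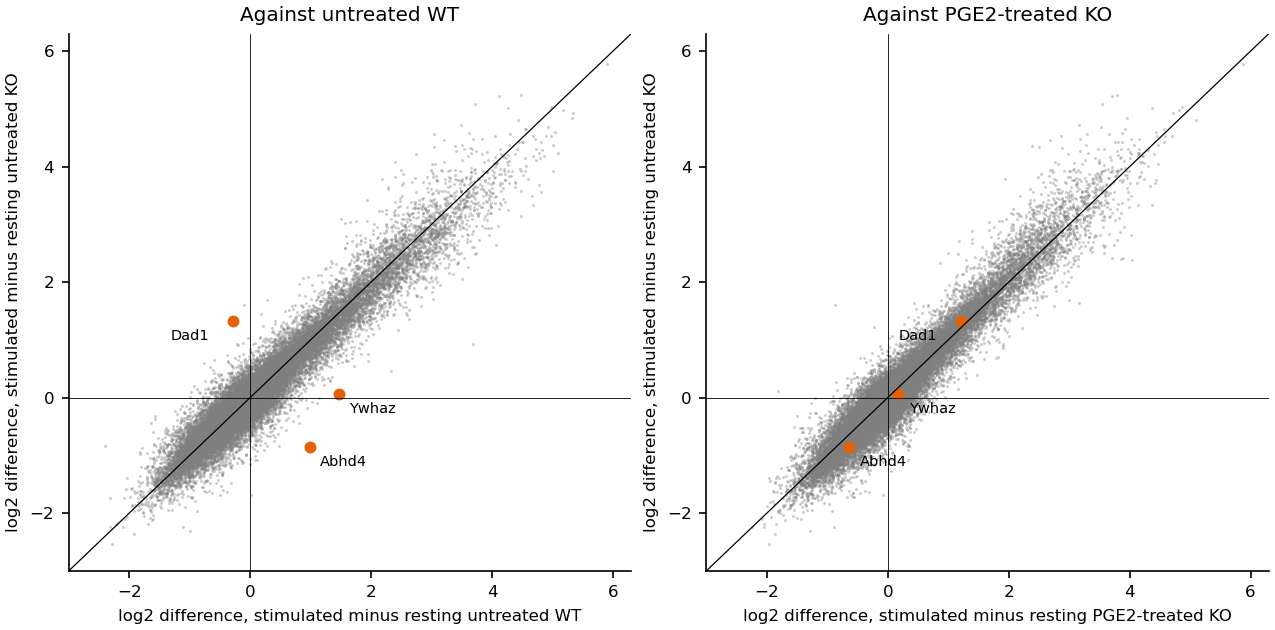
Log2 difference of every tested peak, stimulated minus resting, in untreated KO cells (vertical) against untreated WT cells (left) and PGE2-treated KO cells (right), with the line of equality. Most peaks follow the line (r = 0.963 and r = 0.962); the 3 peaks whose effect differed from WT are in orange, off the line at the left and near it at the right.

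Those 3 peaks were intergenic. At chr14:53802254-53803069, assigned to Dad1, stimulated KO cells had 290.0, 266, 322 and 321, against 99.7, 131 and 131 in resting KO cells, while WT cells had 112, 85.4, 107 and 115 stimulated, against 119, 132, 133 and 123 resting. The effect in KO minus that in WT was 1.60 ± 0.18 (limma adjusted p = 4.88e-06). WT cells with PGE2 had 237 to 315 stimulated and 236 to 271 resting. At chr14:54271948-54273005, assigned to Abhd4, stimulated KO cells had 85.4, 56.6, 94.7 and 72.2, against 113, 158 and 149 in resting KO cells, and WT cells 64.8, 51.5, 56.3 and 70.3, against 32.2, 30.1, 25.5 and 32.2. The peak closed in KO and opened in WT cells, a difference of -1.85 ± 0.26 (limma adjusted p = 0.000534). At chr15:36818620-36820540, assigned to Ywhaz, stimulated and resting KO cells overlapped, with 201 ± 26.7 and 191 ± 16.2 (SD, n = 4 and 3), while WT cells had 118 ± 11.6 stimulated, against 43.0 ± 11.8 resting (SD, n = 4 each), a difference of -1.40 ± 0.22 (limma adjusted p = 0.00322). The Dad1 and Abhd4 peaks lie 8.81 and 9.28 Mb from Ptger2 on chromosome 14, and the Ywhaz peak 31.6 Mb from Ptger4 on chromosome 15, the chromosomes of the targeted genes.

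**Figure D5:**
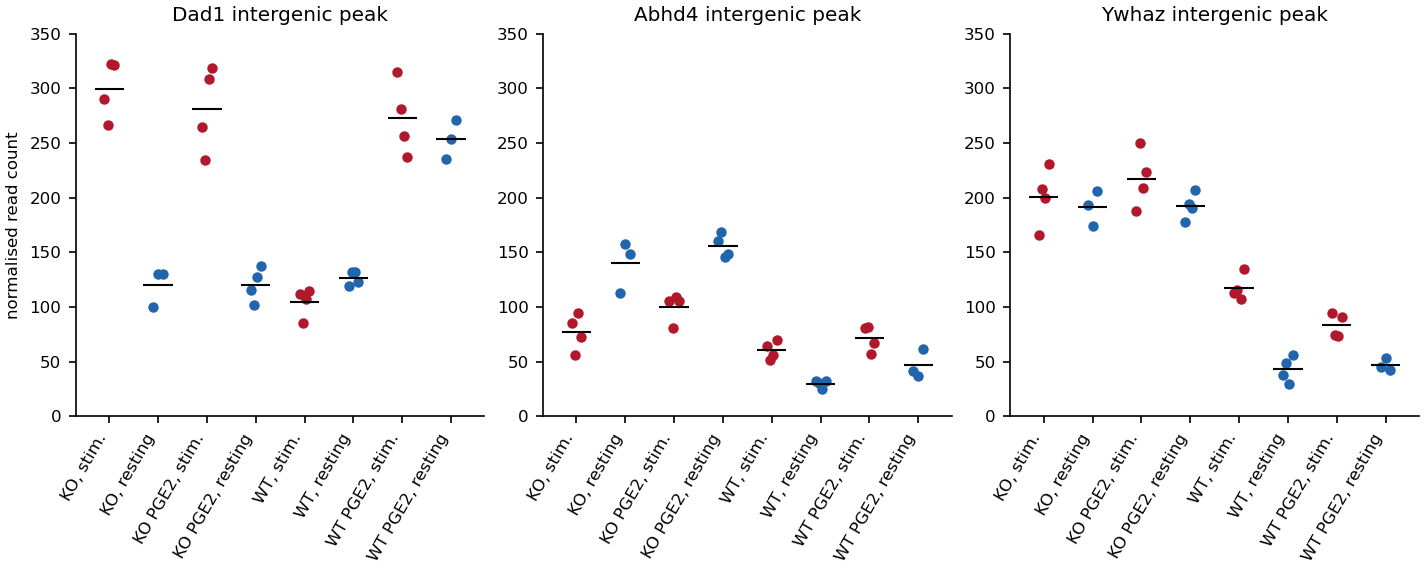
Normalised read count in every library of all 8 groups at the 3 peaks whose stimulation effect differed between untreated KO and untreated WT cells, with stimulated libraries in red, resting in blue and a bar at each mean. At Dad1 stimulated KO libraries lie above resting ones with and without PGE2, and WT libraries with PGE2 lie above those without.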

How the data were processed

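Mouse NK cells from spleen, grown in culture, gave 30 ATAC-seq libraries in 8 groups by genotype, PGE2 and NK1.1 stimulation. The labels do not tell whether replicates are different mice or cultures, so the p-values cover the spread among these libraries alone, and that spread may be technical. The conditioned medium arm is not analysed here.

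Per the submitters' processing notes, the tools were Trimmomatic 0.39, Bowtie2 2.4.1, MACS2 2.2.7.1 and DESeq2, with the mm10 build. How duplicates and the transposase offset were handled is not given in the sources used. The deposited signal is, per the file headers, a normalised count per peak and library, in 1 table of shared peaks with the authors' gene and class for each. All values (100%) were whole multiples of 1 read in their library (tolerance 0.05). Counting error limits low peaks, and reads are not independent molecules.

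Limma 3.58.1 (R 4.3.3, trend, two-sided) was fitted to log2(count + 1) with 1 mean per group over all 30 libraries, for 38525 peaks averaging 10 or more, and p-values were adjusted over all of them within a comparison. Alternatives were edgeR 4.0.16 and DESeq2 1.42.0 on the recovered reads, other scalings, a pseudocount of 5, a minimum mean of 50 or none, only the groups compared, a replicate block and leaving out each library. The fit was tested on simulated data.

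The naming rule took the 12 largest called openings and closings whose groups did not overlap and whose higher group averaged 50 or more, 8 promoters each way, up to 4 genes per list, the 8 genes with the most opened and most closed peaks, all peaks of 21 chosen genes, and all peaks whose effects differed; the text gives part of these. The comparison, members and lists were chosen with earlier results of these data known. RefSeq windows of GRCm38.p6, the assembly behind mm10, gave promoter sequence.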

Additional observations from a re-analysis of the deposited data

Results flagged for a closer look

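In 7 of the 103 peaks described above, 1 of the 4 stimulated KO libraries stood apart from the other 3 by Dixon's criterion, which by chance marks about 1 in 20 groups. The Mir146 intergenic peak had 423, 346, 435 and 429 in replicates 1 to 4. The Serpinb6b intergenic peak had 1134, 909, 1127 and 1137 in replicates 1 to 4. The Tyk2 exon peak had 833, 654, 636 and 621 in replicates 1 to 4. The Cxcl10 promoter peak had 187, 185, 225 and 181 in replicates 1 to 4. The Klrc2 intron peak had 608, 509, 624 and 616 in replicates 1 to 4. The E2f2 intron peak had 166, 126, 124 and 128 in replicates 1 to 4. The Klrb1c intergenic peak had 367, 369.5, 335 and 367 in replicates 1 to 4. Replicate 2 was the lowest at Mir146, Serpinb6b and Klrc2, replicate 1 the highest at Tyk2 and E2f2, and replicate 3 the highest at Cxcl10 and the lowest at Klrb1c.

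The stimulation effect differed between untreated KO and untreated WT cells at 3 peaks by the test of the difference itself, by 1.60 at Dad1, -1.85 at Abhd4 and -1.40 at Ywhaz (KO minus WT, log2 scale).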

How the results depend on the processing

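Opened and closed peaks numbered 10958 and 10556 with DESeq2, 11207 and 9838 with edgeR, 10843 and 10239 with a pseudocount of 5, 9591 and 9395 with a mean of at least 50, 10816 and 10186 with no filter, 10199 and 8930 with only the groups compared, 10186 and 11482 scaled to total signal, 9819 and 10772 scaled to housekeeping promoters and 9695 and 14107 with quantile normalisation. In none of these did an opened peak become closed. Leaving out 1 library gave 10078 to 10693 opened and 9024 to 9973 closed, 3 to 4 peaks differing from WT and 0 from PGE2-treated KO cells. The libraries numbered 3 and 4 alone gave 9738 and 8688, and the shallower ones numbered 1 and 2 alone 8676 and 5887, alternatives chosen after seeing the data, with fewer libraries in both. The last holds only 1 resting library, which is assumed to vary like the other groups, and there 1 closed peak became opened. Requiring a 2-fold difference left 5332 opened and 1754 closed.

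With the replicate number as a block, 11189 and 10829 peaks were called, and the Eomes promoter, not called otherwise, was called as closed (-0.18, limma adjusted p = 0.0224). The deviations of same-numbered libraries correlated at 0.134, 0.272 and 0.006, so the numbers were not taken to pair the samples, and stimulated replicate 4 correlated best with resting replicate 3. With resting replicate 2, stimulated replicates 1 and 2 correlated at 0.116 and 0.134, but replicates 3 and 4 at -0.203 and -0.093. The shallower set holds stimulated replicates 1 and 2 but only resting replicate 2, so the groups are not balanced over it. The main fit does not adjust for this.

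Peaks with differences near 0 changed sign without being called. The Klrb1c peak at 0.10 ranged between -0.02 and 0.19 with 1 library left out. That at -0.02 was 0.00 in the libraries numbered 3 and 4 and ranged between -0.07 and 0.05 with 1 library left out. The Ywhaz peak was -0.06 with quantile normalisation, -0.06 in the libraries numbered 1 and 2 (1 resting library) and between -0.00 and 0.15 with 1 library left out. The cause was not tested. Depth limits peaks with few reads in resting libraries, where a fold change depends on the pseudocount.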
